A study of Rattus norvegicus with 12 samples.

Results

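Blood coagulation and plasminogen activation were represented by 10 genes, taken by gene name from the array annotation. They were tissue factor (F3), coagulation factors X (F10) and XIII subunit A (F13a1), tissue factor pathway inhibitor (Tfpi), thrombomodulin (Thbd), the endothelial protein C receptor (Procr), urokinase (Plau) and its receptor (Plaur), tissue plasminogen activator (Plat) and alpha-2-macroglobulin (A2m). These are 10 of 26612 gene names on the array and 14 of its 30367 probes, as Thbd, Tfpi, Plaur and A2m have 2 probes each. Transcripts were measured in dispersed cervix cells of adult female Sprague Dawley rats either on day 21 after breeding (D21, about a day before birth) or nonpregnant in proestrus (NP). All rats were perfused with saline through the heart before the cervix was digested with collagenase. The suspension was either frozen directly (whole cervix) or passed over magnetic beads after labelling with the ED1 antibody, which binds macrophages (Mφs), and frozen as Mφ-depleted cells. Each of the 4 groups held 3 rats, numbered 5, 6 and 7 (D21 whole), 8, 9 and 10 (NP whole), 1, 2 and 4 (D21 depleted) and 5, 6 and 7 (NP depleted). Each rat gave 1 array, and no rat gave both a whole and a depleted sample, so whole and depleted cells of the same cervix were not paired. Depleted cells also went through incubation, washing and bead handling that whole cells did not.

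Coagulation starts when tissue factor, a membrane protein of stromal, epithelial and activated myeloid cells, meets plasma factor VII and activates factor X, a step that Tfpi blocks. Thrombin formed downstream makes fibrin, which factor XIII cross-links, while thrombin bound to thrombomodulin activates protein C on its receptor Procr and so restrains the cascade. Urokinase and tissue plasminogen activator convert plasminogen to plasmin, which degrades fibrin and helps to open the extracellular matrix, and A2m traps plasmin and many other proteases.

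Levels are given as log2 of the probe intensity minus log2 of that array's 75th percentile, so that 0 is the 75th percentile of the array and a difference of 1 is a doubling. Levels of different probes are not comparable with each other, and only differences between groups of rats are read. A gene was tested where, in at least 1 of the groups compared, all 3 arrays measured it well above background. It was called where limma, fitted to all 12 arrays, gave an unadjusted p under 0.01 with at least a 2-fold difference, the study's own threshold. Adjusted p-values follow Benjamini and Hochberg over all genes tested. F10 was tested nowhere and F13a1 was not tested between the depleted groups.

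The arrays had 44.9% to 61.8% of probes well above background. NP depleted rat 7 had the dimmest array, with a 75th percentile intensity of 290, and D21 depleted rat 1 the brightest, at 1171. The arrays lay on 4 slides read on 3 scan days, and D21 depleted rat 1 was alone on its slide and day. All whole arrays were read on scan day 3, with D21 depleted rat 4 and NP depleted rat 7. The other depleted arrays were read on scan days 1 and 2. The D21 whole arrays lay on slide 2, which held no depleted array. Depletion was thus largely confounded with slide and scan day. The 15 Mφ markers averaged 0.87 and 0.78 in D21 and NP whole cervix and -3.94 and -4.20 after depletion, and 14 of 15 tested (D21) and 12 of 13 tested (NP) were called higher in whole cervix. Other lists moved too. Fibroblast markers averaged 3.85 and 3.86 in D21 and NP whole cervix, 2.53 in D21 depleted cells and -0.36 in NP depleted cells. Smooth muscle markers averaged 4.28 and 5.08 in whole cervix and 1.87 and 0.56 after depletion. Immediate-early genes averaged -0.40 and -0.90 in whole cervix and 2.60 and 1.59 after depletion. Epithelial markers averaged 4.38 and 3.08 in whole cervix and 5.02 and 4.40 after depletion. None of the 7 decidual and placental markers on the array lay well above background on all arrays of any group. In such bulk samples fewer cells of a type and less RNA per cell cannot be told apart.

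In whole cervix, F3 was higher and Tfpi lower at D21 than in NP, and these were the calls among 9 members tested. That is 2 of 9, beside 8.47% of the 14063 genes tested. F3 was 3.52-fold higher and Tfpi 2.37-fold lower. The median log2 fold change of the 9 members was 0.59, beside -0.08 over all genes tested. In 5 of the 9 the groups did not overlap, beside 44.3% of all genes tested.

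After depletion, of 8 members tested between D21 and NP, A2m and Plaur were called higher and Procr lower at D21, beside 7.52% of the 13413 genes tested. A2m was 19.3-fold and Plaur 6.27-fold higher, and Procr was 3.38-fold lower. The A2m probe was not well above background in NP depleted rat 7, so its size is not fully measured. The members' median log2 fold change was 0.72, beside 0.02 over all genes tested. The groups did not overlap in 4 of the 8, beside 17.1% of all genes tested.

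Whole and depleted cells differed in 2 of 9 members at D21, beside 17.7% of the 14262 genes tested, and in 4 of 9 in NP, beside 24.4% of 13419. At D21 F13a1 was higher in whole cervix and Plaur lower. In NP A2m, F13a1 and Tfpi were higher in whole cervix and Plau lower. The members' medians were 0.82 at D21 and 0.83 in NP, beside -0.06 and -0.04 over all genes tested. The groups did not overlap in 7 of 9 members at D21 and 6 of 9 in NP, beside 44.5% and 47.1% of all genes. F13a1, and in the comparisons with NP depleted cells also A2m, passed the filter through the group in which they were high, so their presence in these counts is not independent of their difference.

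**Figure D1:**
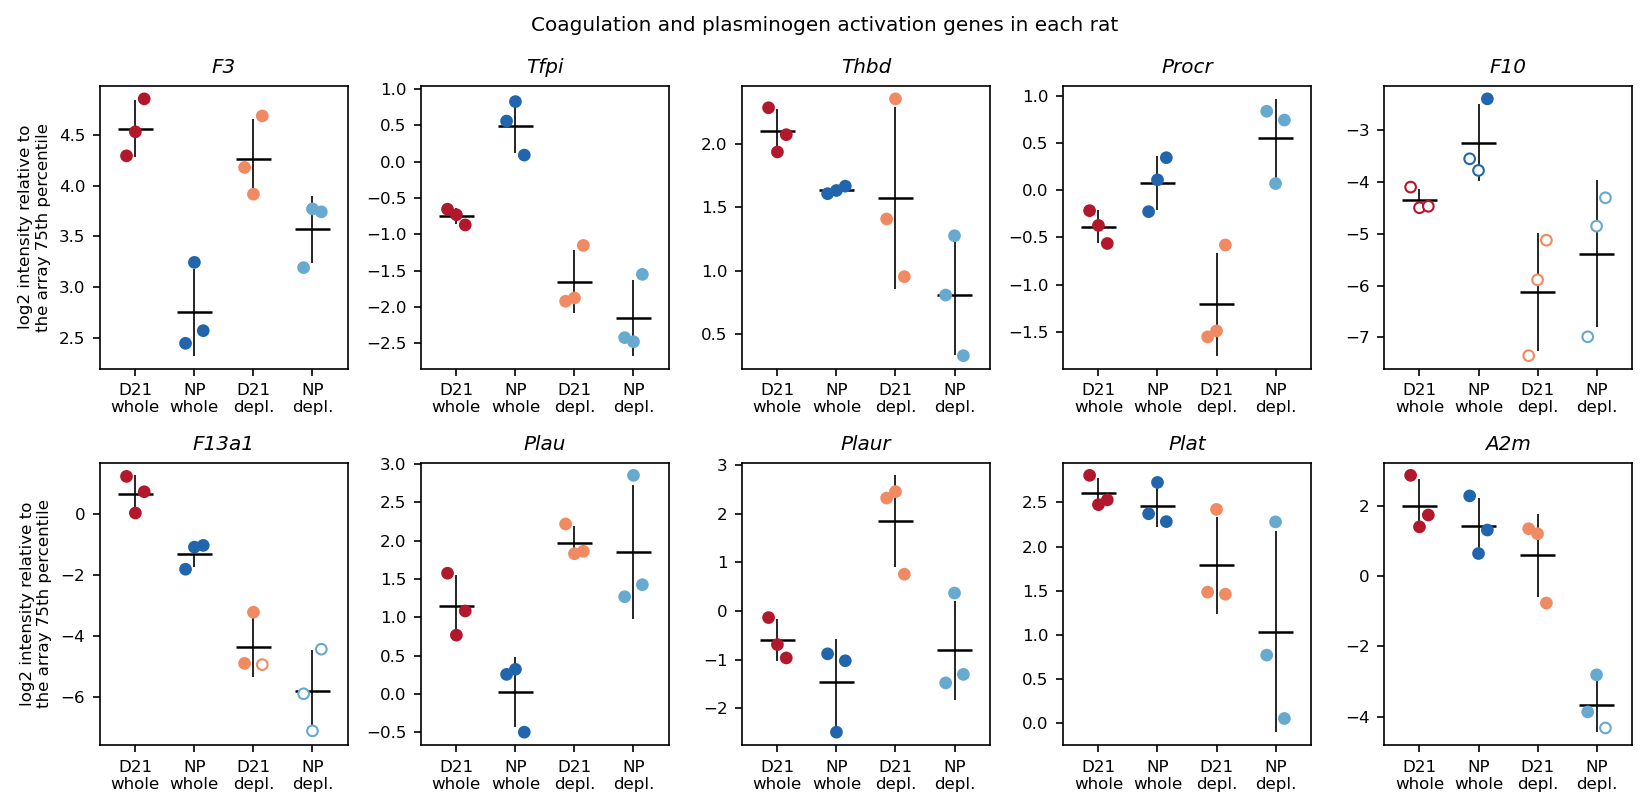
Each panel shows 1 gene, with log2 intensity relative to the array's 75th percentile on the vertical axis (scales differ between panels) and the 4 groups on the horizontal axis. Each point is a rat, open where the probe was not well above background, and the bars are the mean and SD of 3 rats; F3 is higher in all D21 whole rats than in any NP whole rat, and F13a1 is far lower in both depleted groups.

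F3, the receptor that starts coagulation, was measured by 1 probe on rn4 chr2:218382225-218382283, plus strand. In whole cervix it was 4.30, 4.54 and 4.86 in D21 rats 5, 6 and 7 and 2.44, 3.24 and 2.57 in NP rats 8, 9 and 10. All D21 rats lay above all NP rats. The log2 fold change was 1.81 (SE 0.30; limma adjusted p = 0.00951), and F3 was called under 19 of 20 alternatives. Within slide 2, the 3 D21 rats lay 2.00 above the NP rat scanned beside them.

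In depleted cells F3 was 4.18, 3.92 and 4.69 in D21 rats 1, 2 and 4 and 3.19, 3.77 and 3.74 in NP rats 5, 6 and 7. The D21 rats again lay above the NP rats, but by 0.70 (SE 0.30), which did not pass the test (limma adjusted p = 0.213). In NP rats the whole cervix lay below the depleted cells by 0.82, with overlap (limma adjusted p = 0.0585). Without NP whole rat 9 this difference was -1.06 and was called, with a limma adjusted p of 0.0262. At D21 whole and depleted cells differed by 0.30, with a 95% confidence interval of -0.37 to 0.97. Epithelial markers were also higher in D21 than in NP whole cervix, with 6 of 8 called, and their part in the F3 difference was not tested.

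Tfpi, which inhibits the tissue factor complex, has probes that match different RefSeq transcripts of the gene, a brighter one on rn4 chr3:67654531-67654590 and a dimmer one on chr3:67664140-67664199, both minus strand. On the brighter probe Tfpi was -0.65, -0.73 and -0.87 in D21 whole rats 5, 6 and 7 and 0.56, 0.83 and 0.09 in NP whole rats 8, 9 and 10. Every NP rat lay above every D21 rat, by 1.24 on average (SE 0.32; limma adjusted p = 0.0447). The call was lost without NP whole rat 9, where the difference was -1.08, and without D21 whole rat 7, where it was -1.18 (limma adjusted p = 0.103 and 0.179). With slide as a block it was -0.84 and was not called (limma adjusted p = 0.23), the same size as within slide 2, where 3 D21 rats met 1 NP rat. The methods' t-test, adjusted or not, did not call the difference. Nor was it called with normexp background correction (-0.87; limma adjusted p = 0.429) or with the mean of both probes (-1.07; limma adjusted p = 0.19). The call held under 13 of 20 alternatives. The dimmer probe gave -0.90 (limma adjusted p = 0.436).

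In depleted cells Tfpi fell to -1.92, -1.87 and -1.15 in D21 rats 1, 2 and 4 and to -2.42, -2.48 and -1.55 in NP rats 5, 6 and 7. The depleted groups overlapped each other and both lay below their whole cervix. In NP rats whole cervix was 6.23-fold higher (log2 2.64, SE 0.32; limma adjusted p = 0.00011), and this call held under all 20 alternatives. At D21 the difference was 0.90 (SE 0.32) and was not called (limma adjusted p = 0.0637), although without D21 depleted rat 4 it was 1.15 and was called (limma adjusted p = 0.0153). That rat was the only D21 depleted rat on scan day 3, the day of all whole arrays. Blocking on slide or scan day gave 0.95 or 0.35, not called (limma adjusted p = 0.467 and 0.472). Within scan day 3 the D21 difference was 0.40. The dimmer probe was well above background on all 6 whole arrays and on no depleted array, so that whole cervix was at least 2.93-fold higher at D21 and, in NP rats, at least 4.49-fold higher. For such a bound the dim group is set per array at the lowest signal that was well above background, or at the probe's own signal where that was higher. Smooth muscle and fibroblast markers fell with depletion in NP rats as well, with 8 of 8 and 7 of 7 tested called, and their part in the Tfpi difference was not tested.

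F10, the protease that F3 and factor VII activate, was near background in this tissue. Its probe on rn4 chr16:81327721-81327780, minus strand, was well above background on a single array, that of NP whole rat 10, at -2.40. The other NP whole rats stood at -3.55 and -3.78, and D21 whole rats 5, 6 and 7 at -4.10, -4.50 and -4.47. In depleted cells it was -7.35, -5.89 and -5.13 in D21 rats 1, 2 and 4 and -6.99, -4.85 and -4.31 in NP rats 5, 6 and 7. With 1 of 12 arrays measured, no fold is given.

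F13a1, the catalytic subunit of the fibrin-cross-linking factor, which tissue-resident Mφs and platelets are known to make, was far higher in whole than in depleted cells of both D21 and NP rats. Its probe lies on rn4 chr17:34269734-34269793, plus strand. In whole cervix it was 1.22, 0.03 and 0.72 in D21 rats 5, 6 and 7 and -1.81, -1.09 and -1.03 in NP rats 8, 9 and 10. In depleted cells it was -4.90, -3.22 and -4.94 in D21 rats 1, 2 and 4 and -5.89, -7.11 and -4.43 in NP rats 5, 6 and 7. No whole rat overlapped with a depleted rat, and the probe was well above background in 2 of 3 D21 and 0 of 3 NP depleted arrays.

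Whole cervix was 32.2-fold higher for F13a1 at D21 (log2 5.01, SE 0.65; limma adjusted p = 0.0007). In NP it was at least 8.60-fold higher, with a fitted log2 difference of 4.50 (SE 0.65; limma adjusted p = 0.00036). With normexp background correction the differences were 1.68 (D21) and 1.57 (NP), and the NP call was lost (limma adjusted p = 0.0727). The NP call was also lost by the methods' t-test, adjusted or not, and the D21 call by that test after adjustment. With slide as a block the D21 difference was 4.10 and was not called (limma adjusted p = 0.349), and no slide held both groups. Within scan day 3, the 3 whole rats lay above the single depleted rat at D21 (by 5.60) and in NP (by 3.12), but neither depleted rat had the probe well above background, so these are not measured sizes.

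The D21 whole rats also lay above all NP whole rats in F13a1, by 1.97 (SE 0.65), with an unadjusted limma p of 0.0109 that just missed the call (adjusted p = 0.0984). The call was made under 6 of 20 alternatives, quantile normalization and the authors' own normalized table among them, with adjusted p-values from 0.00667 to 0.5 over the 20. The Mφ markers gave 1 call of 15 tested in the same comparison and a median log2 fold change of -0.35. The 4 platelet markers that could be used averaged -1.20 and -1.81 in D21 and NP whole cervix and -2.87 and -2.78 after depletion, and the platelet markers Gp9 and Treml1 were not well above background on any of the 12 arrays. The 6 mast cell markers used averaged -1.48 and -1.94 in whole cervix and -4.53 and -4.36 after depletion. The part of platelets and mast cells in the F13a1 difference was not tested.

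**Figure D2:**
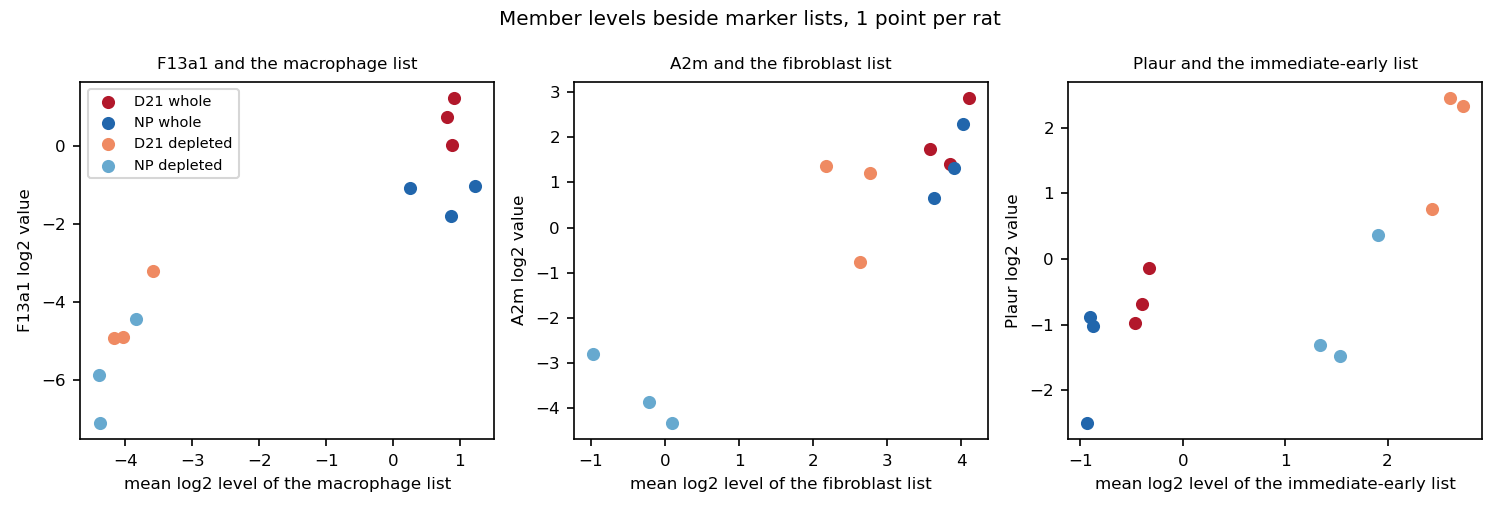
Each point is a rat, with the mean log2 level of a marker list on the horizontal axis and the log2 value of F13a1, A2m or Plaur on the vertical axis, coloured by group. F13a1 is low wherever the Mφ list is low, A2m is lowest in the 3 NP depleted rats, which also hold the lowest fibroblast values, and Plaur is highest in D21 depleted rats, where immediate-early genes are highest.

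Thbd, the endothelial thrombin receptor of the protein C pathway, was called between D21 and NP whole cervix on its dimmer probe but not on its brighter one. On the brighter probe, on rn4 chr3:137158969-137159028, it was 2.28, 1.94 and 2.07 in D21 whole rats 5, 6 and 7 and 1.61, 1.63 and 1.67 in NP whole rats 8, 9 and 10. The groups did not overlap, but the difference of 0.46 (SE 0.35) was not called (limma adjusted p = 0.457). The dimmer probe, on chr3:137160721-137160780 (both minus strand), was 0.41, 0.19 and 0.60 in D21 rats and -0.54, -1.10 and -0.61 in NP rats. It too showed no overlap, with a difference of 1.15 that was past the threshold (limma adjusted p = 0.0354).

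In depleted cells the brighter Thbd probe was 1.41, 2.35 and 0.95 in D21 rats 1, 2 and 4 and 0.81, 1.28 and 0.33 in NP rats 5, 6 and 7. These groups overlapped, and D21 exceeded NP by 0.77 (limma adjusted p = 0.226). Without D21 depleted rat 4 the difference was 1.07 and was called (limma adjusted p = 0.0402). It was also called with slide or scan day as a block, and in no other of the 20 alternatives. Whole cervix exceeded depleted cells by 0.52 at D21 and 0.83 in NP, neither of them called. Blocking on slide gave an NP difference of 1.48 and blocking on scan day 1.50, and both were called (limma adjusted p = 0.0145 and 0.00451). The dimmer probe gave 1.11 at D21, past the threshold (limma adjusted p = 0.0181), and 0.69 in NP. The 10 endothelial markers averaged -0.08 and -0.11 in D21 and NP whole cervix and -0.74 and -0.59 after depletion.

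Procr, which presents protein C to thrombomodulin-bound thrombin, moved the opposite way to Plaur between the depleted groups. Its probe lies on rn4 chr3:146272259-146272318, plus strand. In depleted cells it was -1.55, -1.49 and -0.58 in D21 rats 1, 2 and 4 and 0.83, 0.07 and 0.74 in NP rats 5, 6 and 7. Every D21 rat lay below every NP rat, by 1.76 on average (SE 0.31; limma adjusted p = 0.00908). Procr was called under 18 of 20 alternatives, but not by the methods' t-test, adjusted or not. The same direction held within slide 1, where 1 rat against 1 gave -1.32, and within slide 3, where 1 D21 rat lay 1.94 below the mean of 2 NP rats. In whole cervix it was -0.22, -0.37 and -0.56 in D21 rats 5, 6 and 7 and -0.23, 0.11 and 0.34 in NP rats 8, 9 and 10. These groups overlapped, with a difference of -0.46 (95% confidence interval -1.15 to 0.23). At D21 whole cervix lay 0.82 above depleted cells without overlap, which was not called (limma adjusted p = 0.0797). Without D21 depleted rat 4 it lay 1.14 above and was called (limma adjusted p = 0.00876). That rat was the only D21 depleted rat on scan day 3, the day of all whole arrays. Blocking on slide or scan day gave -0.03 or 0.37, not called (limma adjusted p = 0.992 and 0.527). Within scan day 3 the whole rats lay 0.20 above that rat.

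Plau, the urokinase protease, was lower in whole than in depleted NP cervix. Its probe lies on rn4 chr15:3680711-3680770, minus strand. In NP rats it was 0.25, 0.32 and -0.50 in whole cervix (rats 8, 9 and 10) and 1.27, 2.85 and 1.43 in depleted cells (rats 5, 6 and 7). The groups did not overlap, and whole cervix was 3.54-fold lower (log2 -1.82, SE 0.41; limma adjusted p = 0.00596). The methods' t-test, adjusted or not, did not call this difference. Blocking on slide or scan day gave -1.33 or -1.59, not called (limma adjusted p = 0.133 and 0.057), and within slide 1, where 2 whole rats met 1 depleted rat, it was -1.14.

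At D21 Plau was 1.57, 0.77 and 1.08 in whole rats 5, 6 and 7 and 2.22, 1.83 and 1.86 in depleted rats 1, 2 and 4. The whole rats were again the lower, by 0.83 (SE 0.41), but the difference did not pass the test (limma adjusted p = 0.159). D21 whole rats lay above all NP whole rats by 1.12 (SE 0.41; limma adjusted p = 0.138), a difference called with limma on the 6 whole arrays alone and with array weights. The depleted groups overlapped and differed by 0.12 (95% confidence interval -0.78 to 1.02).

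Plaur, which holds urokinase at the cell surface, was measured by 2 probes on the plus strand of rn4 chr1, a brighter one at chr1:79712786-79712845 and a dimmer one downstream at chr1:79713035-79713094. Their 60-base sequences are shown because the probes changed by different amounts between whole and depleted cells.
Plaur brighter probe: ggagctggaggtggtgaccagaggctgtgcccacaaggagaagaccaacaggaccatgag
Plaur dimmer probe: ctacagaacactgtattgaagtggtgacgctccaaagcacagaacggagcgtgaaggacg

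On the brighter probe Plaur was 2.32, 2.45 and 0.75 in D21 depleted rats 1, 2 and 4 and -1.48, 0.37 and -1.30 in NP depleted rats 5, 6 and 7. All D21 rats lay above all NP rats, by 2.65 (SE 0.61; limma adjusted p = 0.0322), and the dimmer probe gave 2.17 (limma adjusted p = 0.0268). The Plaur difference was called under 18 of 20 alternatives, but not by the methods' t-test, adjusted or not. Within slide 1 the difference was 2.06 (1 rat against 1) and within slide 3 it was 3.01 (1 against 2). In whole cervix it was -0.14, -0.69 and -0.97 in D21 rats 5, 6 and 7 and -0.88, -2.49 and -1.02 in NP rats 8, 9 and 10. These groups overlapped, with a difference of 0.87 that did not pass the test (limma adjusted p = 0.426).

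Against its depleted cells, D21 whole cervix was 5.43-fold lower in Plaur on the brighter probe (log2 -2.44, SE 0.61; limma adjusted p = 0.0197). The difference was -2.14 without D21 depleted rat 2, -2.29 blocked on slide and -1.62 blocked on scan day, and was called in none of these (limma adjusted p = 0.0768, 0.547 and 0.189). The methods' t-test, adjusted or not, did not call the difference either. Within scan day 3 it was -1.35, with 3 whole rats against 1 depleted rat. The dimmer probe gave -1.06, which was not called (limma adjusted p = 0.122). In NP the brighter probe gave -0.66 and the dimmer one 0.32, neither of them called. Immediate-early genes were lower in whole than in depleted cells, with 12 of 14 tested called at D21 and 10 of 12 in NP, and higher in D21 than in NP depleted cells, with 6 of 14 called. Their part in the Plaur differences was not tested.

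The gap between the Plaur probes was narrow and even in whole cervix and wide in depleted cells. Brighter minus dimmer was -0.03 ± 0.06 (SD, n = 3) in D21 and -0.11 ± 0.06 in NP whole cervix. It was 1.35 ± 0.80 in D21 and 0.87 ± 0.41 in NP depleted cells, from 0.47 to 2.12 over the 6 rats. The lowest gaps, 0.52 in D21 depleted rat 4 and 0.47 in NP depleted rat 7, were those of the depleted rats read on scan day 3, with all whole rats. The other depleted rats, read on scan days 1 and 2, had wider gaps. The parts of depletion and scan day in the size of the gap cannot be told apart. No depleted rat overlapped with a whole rat, so the probes changed unequally, and which of them follows the amount of transcript was not tested. The offset itself carries no meaning, since probes differ in brightness.

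**Figure D3:**
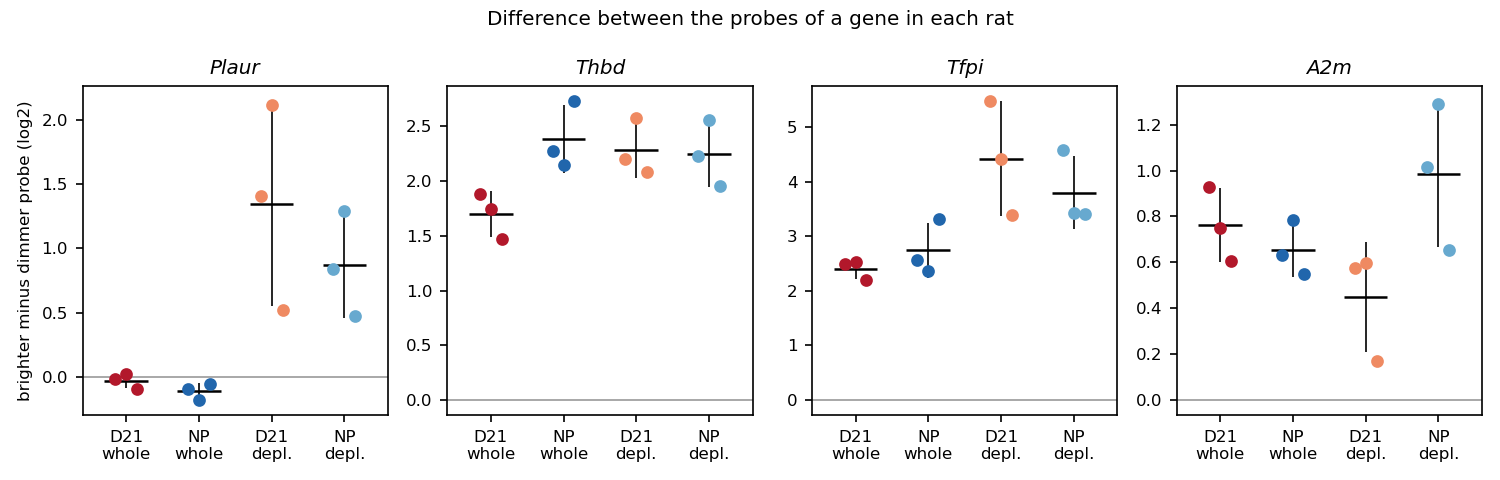
For the 4 genes with 2 probes, each point is the log2 difference between the brighter and the dimmer probe in a rat, with the group mean and SD as bars; changes between groups, not the offset from 0, are to be read. The Plaur difference is between -0.18 and 0.02 in whole cervix and between 0.47 and 2.12 in depleted cells, and in Tfpi no depleted array measured the dimmer probe well above background.

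The RefSeq promoters (build GRCr8) of Plaur and Procr are shown since these genes moved in opposite directions between the depleted groups. Promoter entries matched 6 members (F13a1, F10, Tfpi with 2 entries, Procr, Plau and Plaur). No entry was matched for F3, Thbd, Plat and A2m. The 250 bases before the start site are printed from 5′ to 3′, with the AP-1 letters in capitals. AP-1 was searched as TGACTCA or TGAGTCA, which are each other's complement and so cover both strands, and these letters overlap no other match in the windows. They occur in 4.63% of 33469 rat promoter windows, and among the members in Plaur, from position -83, and Procr, from position -217.
Plaur promoter, chr1:89181113-89181362, plus strand: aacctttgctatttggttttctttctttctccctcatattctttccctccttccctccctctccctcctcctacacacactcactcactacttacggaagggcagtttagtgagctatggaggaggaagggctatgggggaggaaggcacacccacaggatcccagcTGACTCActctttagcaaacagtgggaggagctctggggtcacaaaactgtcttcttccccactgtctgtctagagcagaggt
Procr promoter, chr3:164714477-164714726, plus strand: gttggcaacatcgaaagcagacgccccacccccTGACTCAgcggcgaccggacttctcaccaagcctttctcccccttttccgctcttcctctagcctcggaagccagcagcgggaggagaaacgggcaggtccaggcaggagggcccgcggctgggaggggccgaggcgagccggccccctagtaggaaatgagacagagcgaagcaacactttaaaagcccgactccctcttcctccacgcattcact
Whether these letters have a part in either difference between the depleted groups was not tested. A match describes the letters only.

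Plat, the tissue-type activator of plasminogen, differed little between D21 and NP whole cervix. Its probe lies on rn4 chr16:73711476-73711535, minus strand. It was 2.81, 2.47 and 2.53 in D21 whole rats 5, 6 and 7 and 2.37, 2.73 and 2.28 in NP whole rats 8, 9 and 10. The groups overlapped and differed by 0.14 (95% confidence interval -0.91 to 1.19). After depletion it was 1.48, 2.42 and 1.46 in D21 rats 1, 2 and 4 and 0.77, 2.28 and 0.05 in NP rats 5, 6 and 7. NP whole cervix exceeded all its depleted rats, by 1.43 (SE 0.48), with an unadjusted limma p of 0.012 that missed the call and an adjusted p of 0.04. Without NP depleted rat 6, the highest of its group, it exceeded them by 2.05 and was called (limma adjusted p = 0.00183). Blocking on slide or scan day gave 2.35 or 2.26, both called (limma adjusted p = 0.0136 and 0.00597). Between the depleted groups D21 exceeded NP by 0.75 (limma adjusted p = 0.373), and by 1.38 without NP depleted rat 6, past the call threshold (limma adjusted p = 0.0661).

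A2m, the broad protease trap, fell sharply with depletion in NP rats. It has a brighter probe on rn4 chr4:158152445-158152504 and a dimmer one on chr4:158153349-158153408, both plus strand. On the brighter probe it was 2.29, 0.65 and 1.32 in NP whole rats 8, 9 and 10 and -3.87, -2.81 and -4.32 in NP depleted rats 5, 6 and 7, the last of which was not well above background. Whole cervix was 33.9-fold higher (log2 5.08, SE 0.64; limma adjusted p = 0.00015). The difference was called under all 19 alternatives that could give it, and within slide 1, with 2 rats against rat 7 alone, it was 5.79, which is no measured size since that array was not well above background. The dimmer probe gave 5.42 (limma adjusted p = 2.4e-05).

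At D21 A2m was 2.88, 1.41 and 1.75 in whole rats 5, 6 and 7 and 1.36, 1.21 and -0.76 in depleted rats 1, 2 and 4. The whole rats lay above the depleted rats by 1.41 (SE 0.65), which was not called (limma adjusted p = 0.131). With scan day as a block it was 2.49 and was called (limma adjusted p = 0.0561), and within scan day 3, with 3 rats against 1, it was 2.77. D21 and NP whole cervix overlapped and differed by 0.59 (95% confidence interval -0.83 to 2.01). D21 depleted cells exceeded NP depleted cells by 4.27 (SE 0.64; limma adjusted p = 0.00362), and by 4.55 within slide 3 (1 rat against 2). That difference ran from 3.06 to 4.95 over 19 alternatives and was called in all but the methods' t-test after adjustment. Within slide 1 (1 against 1) it was 3.56, again against NP depleted rat 7. Fibroblast markers differed between the depleted groups in the same direction, with 6 of 7 tested called higher at D21, and smooth muscle markers with 5 of 7. Their part in the A2m difference was not tested.

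**Figure D4:**
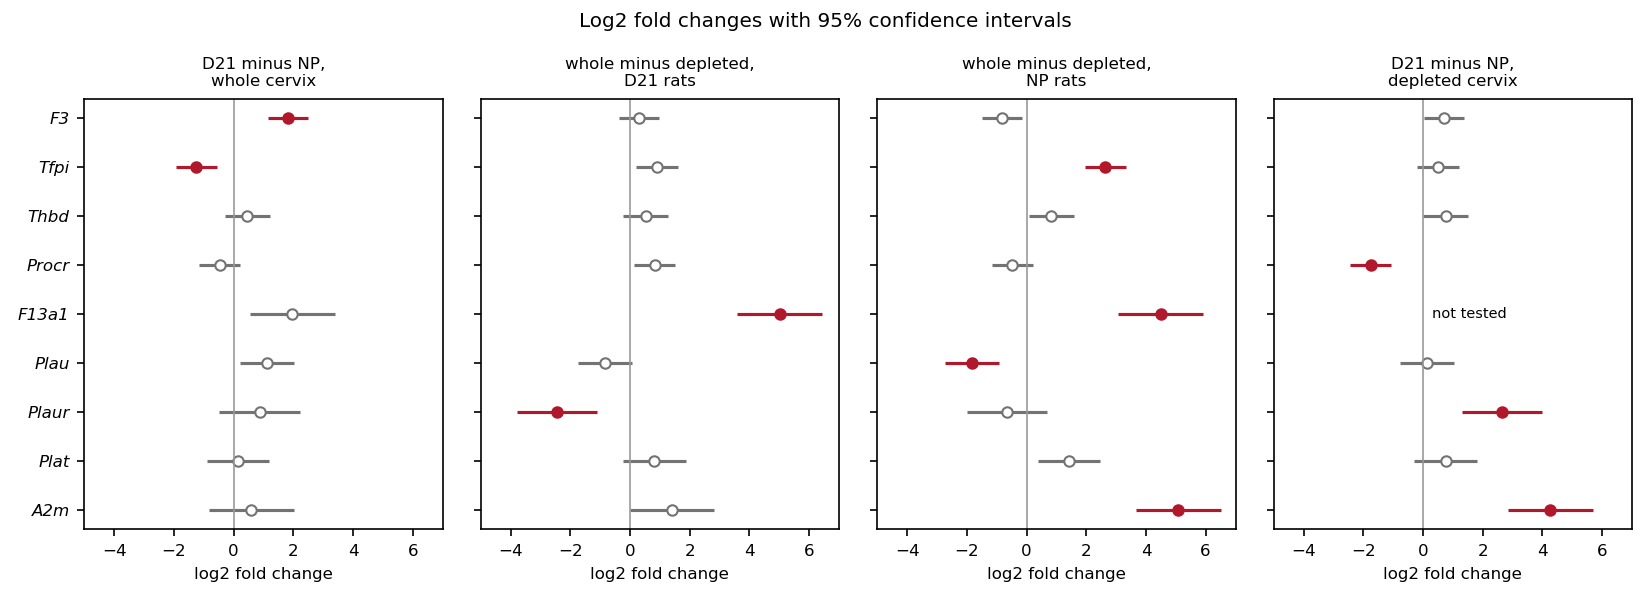
Points are limma log2 fold changes of the 9 members that could be tested and lines their 95% confidence intervals, with 1 panel for each comparison; filled red points were called (unadjusted p under 0.01 with at least a 2-fold difference). F3 and Tfpi were called between D21 and NP whole cervix, and A2m, Plaur and Procr between the depleted groups.

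The interaction asked whether the difference between whole and depleted cells was itself unlike in D21 and NP rats. Of 9 members, 2 were past the call threshold, beside 7.44% of the 14572 genes tested. The whole minus depleted difference was smaller at D21 than in NP by 3.68 for A2m (SE 0.92; limma adjusted p = 0.0647) and by 1.74 for Tfpi (SE 0.45; limma adjusted p = 0.0737). Neither passed after adjustment on the probes used. The dimmer A2m probe gave -4.32 (limma adjusted p = 0.015) and the dimmer Tfpi probe -0.78 (limma adjusted p = 0.669). Procr (1.30) and F3 (1.12) had positive terms that were not called (limma adjusted p = 0.154 and 0.194). Without D21 depleted rat 4 they were 1.61 and 1.33 and were called. F3 was also called without NP whole rat 9, at 1.36, and Procr without NP depleted rat 6, at 1.54. The terms of F13a1 (0.51), Plau (1.00), Plat (-0.61), Thbd (-0.30) and Plaur (-1.78) were not called.

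A list of 54 other genes of coagulation and fibrinolysis was set beside the members, of which 52 were on the array and 22 to 25 were expressed well enough to be tested in any comparison of groups. Those not tested between whole and depleted D21 cells included the liver-made factors F2, F7, F9, F11 and F12 and the fibrinogen chains Fga, Fgb and Fgg. In whole cervix 0 of 25 were called higher and 2 lower at D21, by limma, beside 8.47% of all genes tested called in either direction, and the medians were 0.09 for the list and -0.08 for all genes. These were Serpine2, a protease inhibitor that binds thrombin and urokinase (log2 -1.25; limma adjusted p = 0.0423), and Pros1, protein S, the cofactor of activated protein C and of Tfpi (-1.17; limma adjusted p = 0.0824).

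Between whole and depleted cells the list gave 5 calls higher and 2 lower of 25 at D21, and 9 higher and 3 lower of 24 in NP, beside 17.7% and 24.4% of all genes called. The list's medians were 0.35 and 0.84, beside -0.06 and -0.04 over all genes. Pros1 was higher in whole cervix by 1.76 at D21 and at least 8.05-fold in NP. F2r, the thrombin receptor PAR1, was higher by 2.94 and 2.40, and Itgb3, an integrin subunit of platelets and other cells, by 2.64 at D21 and at least 8.27-fold in NP. Mrc2, a collagen receptor that associates with Plaur, was higher in whole cervix by 1.57 at D21 and 4.42 in NP, and was higher in D21 than in NP depleted cells by 2.52, as A2m was. Lrp1, the receptor that clears A2m and protease complexes, was higher by 1.29 in both. Higher in whole than in depleted NP cervix were also Serpine2 (1.77), Vkorc1, which recycles the vitamin K that clotting factors need (1.90), and Gas6, a vitamin K-dependent ligand related to Pros1 (1.87). Pros1, F2r, Itgb3 and, against NP depleted cells, Mrc2 passed the filter only through the group in which they were high. Their presence in these counts is not independent of their difference. At D21, Pros1 was well above background on 1 of 3 depleted arrays, and F2r and Itgb3 on 2 of 3, so these sizes are not fully measured. In NP, F2r and Mrc2 were so on 2 of 3.

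Lower in whole than in depleted cells were F2rl1, the protease-activated receptor PAR2, by 1.76 at D21 and 1.06 in NP, and Eno1, a glycolytic enzyme that also binds plasminogen, by 1.28 at D21. F2rl1 was well above background on 2 of 3 NP whole arrays and passed the NP filter through the depleted group. In NP, Anxa2, a plasminogen receptor subunit, and Vwf, von Willebrand factor, were lower by 1.25 and 1.33. The limma adjusted p-values of these differences between whole and depleted cells ran from 2.1e-06 to 0.0329. Between the depleted groups 3 of 22 were called higher at D21 and 0 lower, by limma, beside 7.52% of all genes, with medians of 0.34 for the list and 0.02 for all genes. They were Mrc2, Gas6 (1.57; limma adjusted p = 0.00583) and F2rl1 (1.36; limma adjusted p = 0.0455). Plg, plasminogen itself, was well above background in all 4 groups and was called in no comparison, with log2 differences from -0.55 to 0.54. Its signal was low, with means of -3.08 in NP whole and -3.27 in NP depleted cells. The lowest signals well above background were -3.19 in NP whole rat 8 and -2.93 in NP depleted rat 7, so a difference could be missed.

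**Figure D5:**
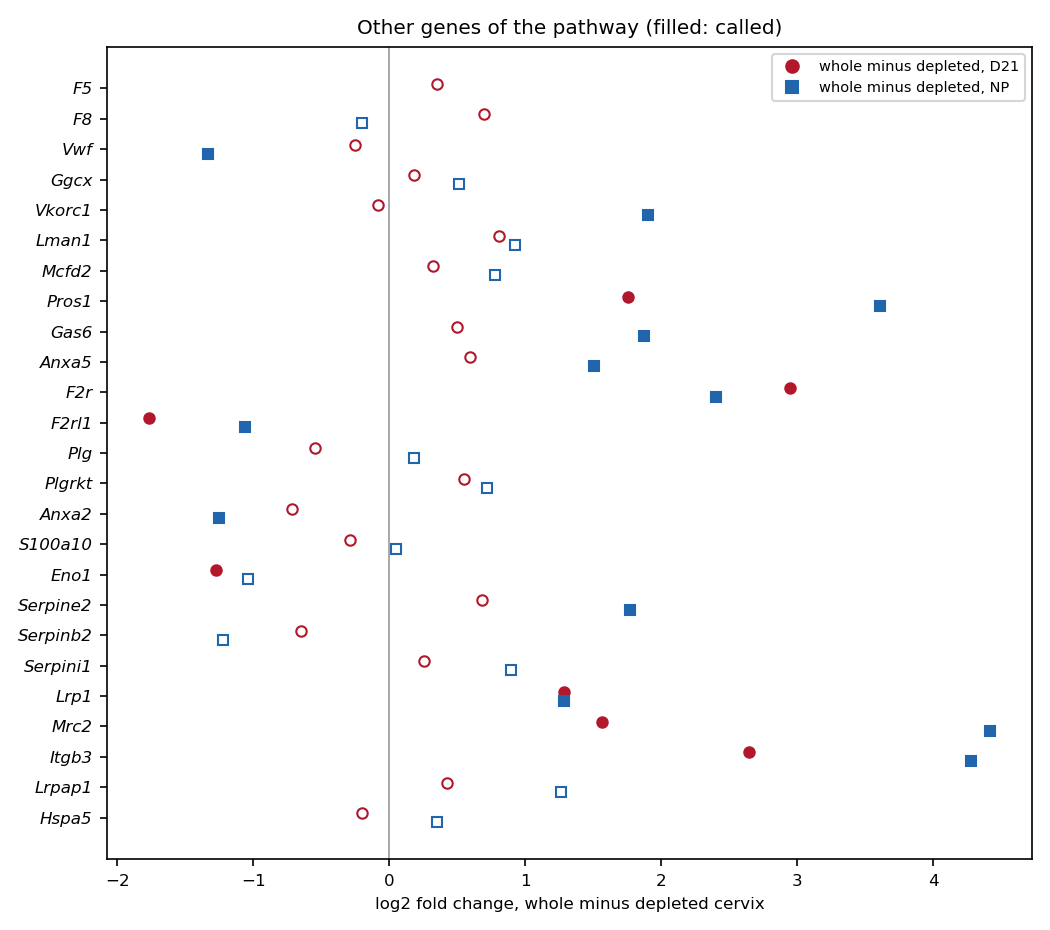
Each row is a gene of the wider list that could be tested, with the log2 fold change of whole minus depleted cervix on the horizontal axis, red circles for D21 and blue squares for NP rats; filled symbols were called. Pros1, F2r, Mrc2, Itgb3 and Lrp1 are higher and F2rl1 lower in whole cervix in both.

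The genes with the profile most like each member were found over the 12 arrays, as the smallest root mean square difference of centred log2 values among about 10666 genes. F10, near background, is left out. The nearest to F13a1 were Fcna and the Mφ scavenger receptor Cd163 (0.79 and 0.85, beside F13a1's own spread of 2.64). The nearest to A2m were Fibin and Olfml3 (0.63 and 0.80, beside 2.35). For Thbd they were Clec14a, an endothelial lectin, and Rnaset2 (0.23 and 0.26, beside 0.585). For F3 they were the tight junction gene Marveld3 and Pgap6 (0.23 and 0.25, beside 0.76). Tfpi lay nearest to Glt8d1 and Sgce, Procr to Xdh and Hist1h2bg, and Plau to the desmosomal gene Pkp4 and the cadherin Fat1. Plaur lay nearest to the glucose transporter Slc2a3 and Bmp2, and Plat to Steap2 and Casp12. Their differences were 0.29 to 0.60, beside own spreads of 1.05 (Tfpi), 0.72 (Procr), 0.89 (Plau), 1.43 (Plaur) and 0.82 (Plat). These are descriptions over arrays that share slides and groups.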

How the data were processed

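Each rat's cRNA was hybridised to a 1-colour Agilent 4x44K rat array. The authors deposited Feature Extraction 9.5.3.1 scanner files, which per the file headers hold spot intensity on a linear scale, background subtracted, and a table of intensity as a ratio to each array's 75th percentile, which was used as an alternative. Probe positions are those of the files (rn4). Here, control spots and 294 to 648 outlier spots of the remaining 42877 per array were left out, spots of a probe averaged, and log2 of the processed signal less the array's log2 75th percentile was taken. Each gene was represented by its brightest probe, and every member probe has 1 spot. RefSeq accessions named 17328 probes (57.1%), and other names are those of the array.

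Group means were fitted with limma 3.58.1 (R 4.3.3) to all 12 arrays, and the interaction as a contrast of them. The study used Welch's test of the same threshold, which is run here as the methods' t-test. Each group is 3 rats, so that an exact permutation test could not go below p = 0.1 and the precision rests on that number. Fits were tested on simulated data. The members and gene lists were chosen with earlier results of these data known. Members, pathway genes past the call with an adjusted p under 0.05 and no overlap, and the nearest profiles were named, and Pros1 (in whole cervix), Plg and the untested factors were added after their values were seen. Alternatives were other tests, background corrections, scalings, filters, probe rules, array weights, slide and scan day as blocks, and each rat left out. The dimmer probes and the values within a slide or scan day were added after seeing the data. Of the 54 pathway genes described, 2 were not matched to the array, and 1 further gene is not reported here. Marker lists are means over those genes that some group measured well above background in all its rats.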

Additional observations from a re-analysis of the deposited data

Results flagged for a closer look

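The interaction of pregnancy and depletion drew attention to A2m and Tfpi. Their terms were past the unadjusted call threshold, but neither passed after adjustment on the probes used. The log2 term was -3.68 for A2m (limma adjusted p = 0.0647) and -1.74 for Tfpi (limma adjusted p = 0.0737). In both genes all NP whole rats lay above all NP depleted rats by more than the D21 whole rats lay above the D21 depleted rats on average.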

How the results depend on the processing

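No paired analysis was possible because the groups compared share no replicate number, and whole and depleted cells came from different rats. Over the members and comparisons 919 alternative values were computed, of which 852 kept their side of the threshold, 34 lost the call and 33 gained it. Of these 919 values, 0 that were called changed sign and 12 that were not called did. The number of members called in whole cervix between D21 and NP (2) was 1 by the methods' t-test, 0 by it after adjustment, 4 with limma on the 6 arrays alone, 1 with normexp, 1 with the mean of all probes, 4 with array weights and 1 with slide as a block, and 1 to 2 with a rat left out (1 without NP whole rat 9 or D21 whole rat 7). Between whole and depleted D21 cells (2) it was 1 by the methods' t-test, 0 by it after adjustment, 1 with genes well above background on every array, 4 with array weights and 0 with slide as a block, and 1 to 4 with a rat left out (1 without D21 depleted rat 2 and 4 without rat 4). In NP (4) it was 2 by the methods' t-test, adjusted or not, and 2 with genes well above background on every array, since A2m and F13a1 then drop out. Between the depleted groups (3) it was 1 by the methods' t-test and 0 after adjustment. For the interaction (2) it was 0 by adjusted limma p, 1 by the methods' t-test, 0 by it after adjustment, 1 with normexp, 1 with genes well above background on every array, 1 with the mean of all probes and 5 with array weights, and 2 to 4 with a rat left out (4 without D21 depleted rat 4). The cause of these changes was otherwise not tested. A fit of 6 arrays cannot hold the interaction, and slide or scan day as a block leaves out D21 depleted rat 1, which was alone on both. With the 75th percentile taken over probes well above background on all arrays, the median of all genes moved to -0.141 between the depleted groups and to 0.126 between whole and depleted D21 cells, from 0.019 and -0.061. F10 and depleted F13a1 are limited by signal over background.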

Other observations

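Further marker lists were measured beside the members. Erythroid markers (2 usable) averaged 2.24 and 0.48 in D21 and NP whole cervix and 0.20 and -3.44 after depletion. The depleted groups were widely spread (SD 2.69 in D21 and 1.79 in NP), with 2.08, 1.41 and -2.88 in D21 depleted rats 1, 2 and 4. Heat shock genes (5 usable) averaged 1.99 and 2.24 in whole cervix and 4.11 and 3.53 after depletion, and housekeeping genes (8) 4.22 and 4.41 against 4.65 and 4.62. Neutrophil markers (2 usable of 6) averaged -1.09 and -0.06 in whole cervix and -2.62 and -1.14 after depletion. The NP depleted average was uneven, with -2.26, 0.97 and -2.12 in rats 5, 6 and 7. Of the other genes in this list, Camp and Ngp had no signal well above background in any group. Mpo and Elane had none outside NP whole cervix. T and NK cell markers (5 usable) averaged -2.86 and -2.34 in whole cervix against -4.06 and -3.90 after depletion. Hepatocyte markers (2 usable of 6) averaged 2.31 and 0.92 in whole cervix and 0.84 and 0.32 after depletion. In D21 whole cervix no array measured Alb, Apoa1, Ahsg or Ttr of this list well above background. In NP whole cervix the same held for Apoa1, Ahsg and Ttr. The averages thus describe 2 genes of the list only, and whether they reflect hepatocyte transcripts was not tested.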
